A study of Arabidopsis thaliana with 8 samples.

Results

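The cytosolic large-subunit ribosomal protein genes of Arabidopsis were described here across 8 ATH1 arrays, which report a fluorescence signal for each probe set, a group of short probes directed at a transcript. Of 60 listed loci of 24 families, 38 loci of 18 families had a probe set annotated to exactly 1 gene and not marked as shared, out of 13074 genes measured in this way. Another 3 loci (AT1G74060 and AT1G74050 of the RPL6 family and AT1G33140 of the RPL9 family) lay on probe sets shared between genes, and 19 had no probe set named here and were not analysed. The loci are given by their AGI codes, since the tables used here name only AT2G27530 (PGY1) by a symbol, and their families come from general knowledge of these gene families that was not checked against an annotation.

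Shoot apices were taken from plants aged 15 days that had grown under long days at 22°C or 26°C. The 4 genotypes were the wild type Col-0, the as2-1 mutant of Asymmetric Leaves2 (AS2), the rh10-1 mutant of RH10 (At5g60990) and the as2-1 rh10-1 double mutant. AS2 forms a nuclear repressor complex with AS1, and RH10 encodes a nucleolar DEAD-box RNA helicase, whose counterparts in yeast and human act in small-subunit rRNA processing. The as2-1 line had been outcrossed to Col-0, and rh10-1 was found among mutagenised as2-1 seeds as 1 recessive point mutation, so that every rh10-1 value here rests on that 1 allele. There was 1 array per genotype and temperature. A difference between temperatures was therefore replicated over 4 genotypes, an effect of rh10-1 at 1 temperature over a pair of genotypes with and a pair without it, and a ratio of 2 single arrays had no replicate. The 4 arrays at each temperature were treated in the study as a data set of their own, and so temperature and data set cannot be told apart. Whether an array held RNA of 1 plant or of several was not stated in the sources used here.

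Each ribosome joins a small subunit, which reads the mRNA, to a large subunit, which forms the peptide bond and guides the new chain out through a tunnel. In plants most proteins of the large subunit are encoded by several paralogous genes, whose transcripts are abundant in dividing tissue such as the shoot apex. Loss of single large-subunit genes in Arabidopsis gives pointed leaves, and several of these mutations, among them that of PGY1, enhance the leaf polarity defects of as1 or as2.

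The deposited arrays had trimmed mean signals of 198.1 to 198.4. The software had scaled each array, so that this likeness does not check them. Their medians were 69.6 to 79.9, with the lowest in rh10-1 at 22°C, against 76.4 in Col-0 at 22°C. RH10 itself had signals of 352, 439, 677 and 554 at 22°C and of 348, 293, 394 and 261 at 26°C, in the order Col-0, as2-1, rh10-1, double mutant. As a point mutation, rh10-1 need not change this signal, which therefore does not check the labels, and AS2 was not analysed here. Of 14 shoot apex and leaf primordium markers, 4 were measured. YAB3, YAB5 and PHV, which act in leaf polarity, had signals of 62.6 to 508 over the arrays, whereas CLV3, a stem cell marker, lay at 0.9 to 26.8, under the 40th percentile of the probe sets on each array. The 1 root marker measured (AT5G17820) lay at 0.5 to 15.2, and none of 5 flower markers was measured.

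All 38 genes passed the filter on low signals, which kept a gene that was above the 40th percentile of an array at least once. In all, 8399 genes passed it. For 36 of the 38 the median signal was over 100. AT3G51190, of the RPL8 family, and AT2G47570, of the RPL18 family, passed through 1 array each. AT3G51190 had signals of 26.7, 19.7, 22.4 and 6.3 at 22°C and of 11.9, 29.6, 51.5 and 12.3 at 26°C, in the same order of genotypes. AT2G47570 had signals of 16.1, 14.6, 23.8 and 21.5 at 22°C and of 57.1, 29.8, 9.3 and 20.8 at 26°C. Both stayed near or under the 40th percentile of the arrays (38.9 to 44.5), and their ratios are those of low signals.

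The genes were lower at 26°C than at 22°C as a group. In a limma fit of genotype and temperature over the 8 arrays, 27 of the 38 fell at 26°C at an adjusted p under 0.05, against 17.1% of the 8399 genes tested, and 1 rose, AT3G13580 of the RPL7 family, against 21.4% of the genes tested. The median log2 difference was -0.76 for the 38 and 0.06 for all genes. For 26 of the 38, all 4 arrays at 26°C lay under all 4 at 22°C, which was so for 16.7% of all genes, and the reverse held for 1, against 21.9% of all genes. Signals were lower at 26°C within each of the 4 genotypes for 30 of the 38, against 23.8% of all genes. Without the filter on low signals, 20 of the 38 were called lower, and over fits that left out 1 array each the count ranged from 19 (without either as2-1 array) to 28 (without Col-0 at 26°C). With 1 array per condition, these p-values measure the spread between genotypes around a common temperature difference.

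**Figure D1:**
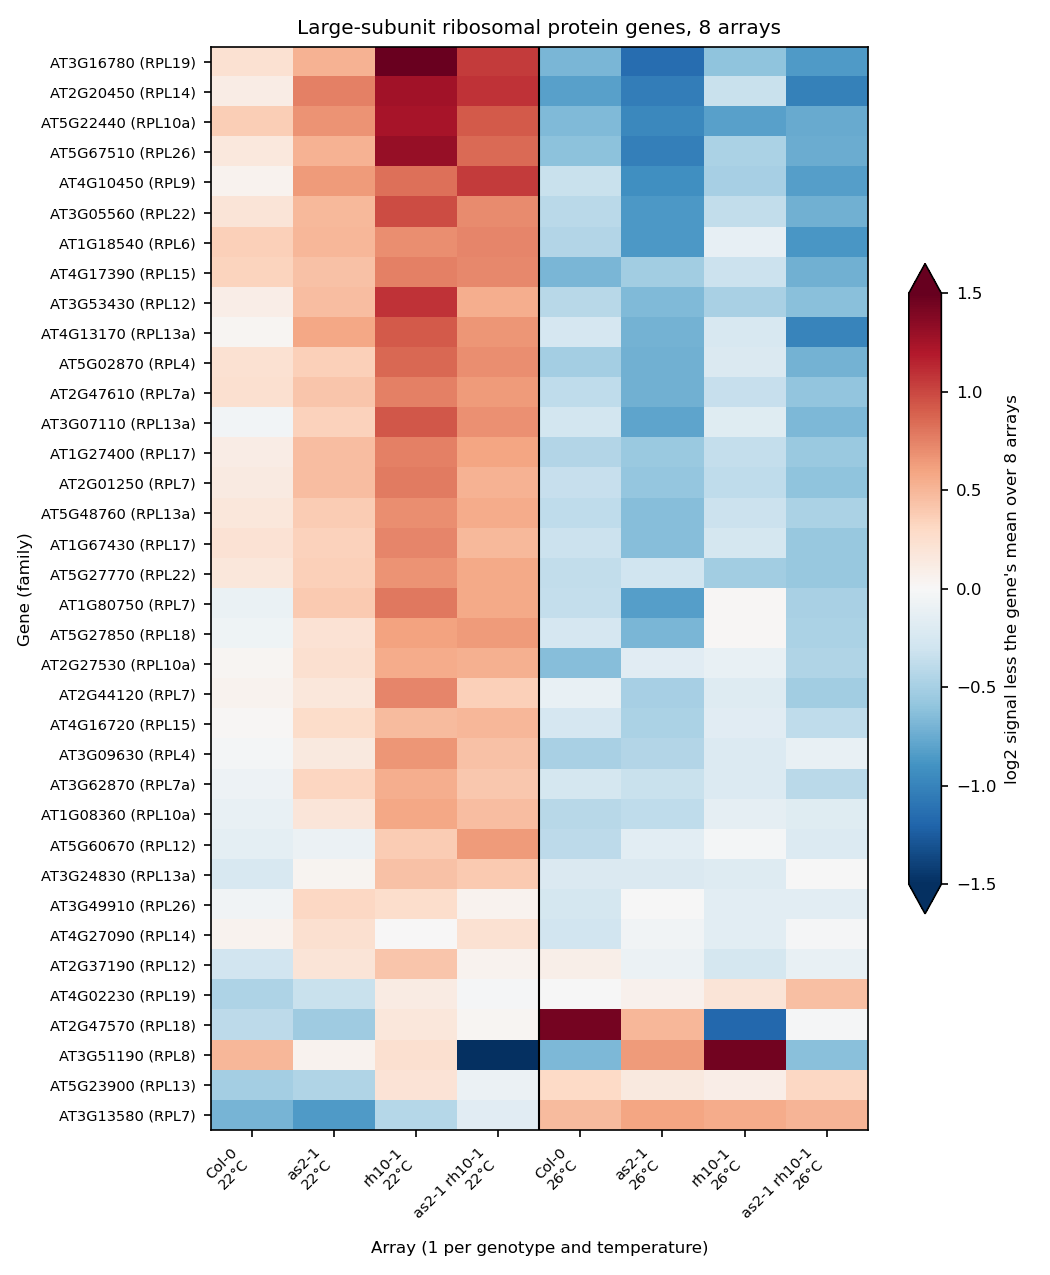
Log2 signal of 36 of the 38 large-subunit genes on the 8 arrays, less each gene's mean over the arrays; columns are arrays (22°C left, 26°C right), rows are genes in the order of their temperature difference, and colours beyond 1.5 are held at the end of the scale. Most rows are above their mean at 22°C and under it at 26°C, most of all in rh10-1 at 22°C, and AT3G13580 in the lowest row runs the other way.

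The median decrease was smallest in the wild type and largest in the double mutant. Each genotype's ratio comes from 2 single arrays, so a difference between genotypes had no replicate. The ratio in Col-0 uses the same array at 22°C as the ratios to Col-0 given below. The median log2 ratio of 26°C to 22°C over the 38 genes was -0.36 in the wild type, -0.83 in as2-1, -0.89 in rh10-1 and -1.04 in the double mutant, and the number lower by 1.5-fold or more was 11, 25, 30 and 27, in that order, against 18.2%, 21%, 21.4% and 25.4% of all genes. The medians of all genes in these ratios lay between 0.05 and 0.09. After quantile normalization the medians of the 38 were -0.39, -0.66, -0.57 and -0.76, and 9, 19, 19 and 21 were lower by 1.5-fold or more, so that as2-1 and rh10-1 changed places. Across genes, Pearson's r between the log2 ratios of 2 genotypes, which share no array, ranged over the 6 pairs from 0.824 to 0.946 for the 36 genes with signals over 100, and from 0.655 to 0.85 for all 5281 genes with such signals. For all 38, with the pair of low signals, r ranged from 0.36 (Col-0 with rh10-1) to 0.931. These correlations are across genes, which are not independent replicates, and the ratios of all genotypes share the division into data sets by temperature.

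The tunnel through which the new chain leaves is lined, in yeast and bacterial ribosomes, by proteins of the RPL4 and RPL17 families. In yeast, those of RPL26 and RPL19 lie near its exit. All 4 measured genes of RPL4 and RPL17 fell at 26°C. AT5G02870, of the RPL4 family, had signals of 6552 (Col-0), 7141 (as2-1), 10145 (rh10-1) and 9093 (double mutant) at 22°C and of 3942 (Col-0), 3381 (as2-1), 4827 (rh10-1) and 3432 (double mutant) at 26°C. Its 2 sets of arrays did not overlap, and the log2 difference was -1.07 ± 0.16 (SE, 4 arrays per temperature, adjusted p = 0.00139 by limma). Its paralog AT3G09630 had signals of 5261, 5933, 8439 and 7259 at 22°C and of 3832, 3955, 4647 and 4967 at 26°C, with a log2 difference of -0.61 ± 0.15 (SE, adjusted p = 0.0122). This call was lost without either as2-1 array or either rh10-1 array (adjusted p = 0.0665 to 0.0786) and without the filter on low signals (adjusted p = 0.0778). The pair of RPL17 genes, AT1G27400 and AT1G67430, differed by -0.96 and -0.90 on the log2 scale, so that the ratio between them moved by 0.06.

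The RPL19 and RPL26 families each held a gene with a large decrease beside one that was not called. AT3G16780, of the RPL19 family, had signals of 1984 (Col-0), 2429 (as2-1), 4717 (rh10-1) and 3497 (double mutant) at 22°C. At 26°C it had 1058 (Col-0), 768 (as2-1), 1116 (rh10-1) and 943 (double mutant), so that every array at 26°C lay under every array at 22°C. The log2 difference, -1.64 ± 0.20 (SE, adjusted p = 0.000524), was the most negative of the 38. The paralog AT4G02230 had signals of 2377, 2595, 3563 and 3252 at 22°C and of 3273, 3425, 3757 and 4487 at 26°C. It was higher at 26°C within each genotype although the 2 sets of arrays overlapped, and the log2 difference of 0.35 ± 0.15 was not called (adjusted p = 0.0919), except after quantile normalization (0.61, adjusted p = 0.00783). Within an array, the log2 ratio of the 2 RPL19 paralogs shifted by 1.99 between temperatures. In the RPL26 family, AT5G67510 had signals of 3132, 4022, 6942 and 5052 at 22°C and of 1829, 1379, 2004 and 1673 at 26°C. These sets did not overlap and differed by -1.43 ± 0.19 on the log2 scale (SE, adjusted p = 0.000739). AT3G49910 of the same family had 10607, 13589.5, 13215 and 11389.6 at 22°C and 9126, 10936, 9845 and 9799 at 26°C, with a log2 difference of -0.29 ± 0.15 that was not called (adjusted p = 0.156).

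Proteins of the RPL10a family form, in bacteria and yeast, the mobile stalk beside which the used tRNA leaves, and those of RPL12 sit at the base of the stalk that recruits translation factors. All 3 RPL10a genes fell at 26°C, of which AT1G08360 (-0.56 ± 0.15, SE, adjusted p = 0.017) was not called after quantile normalization, without the filter or without either as2-1 or either rh10-1 array (adjusted p = 0.0827 to 0.113). AT5G22440 had signals of 2431, 3001, 4435 and 3579 at 22°C and of 1193, 965, 1077 and 1122 at 26°C. Its arrays at 26°C lay within a narrow band far under the lowest array at 22°C, and the log2 difference was -1.59 ± 0.18 (SE, adjusted p = 0.000394, the smallest among the 38). PGY1 (AT2G27530), known from the piggyback leaf mutants, had signals of 3921 (Col-0), 4554 (as2-1), 5634 (rh10-1) and 5564 (double mutant) at 22°C and of 2469 (Col-0), 3412 (as2-1), 3562 (rh10-1) and 2819 (double mutant) at 26°C. The log2 difference of PGY1 was -0.68 ± 0.15 (SE, adjusted p = 0.00852). Among the 3 RPL12 genes only AT3G53430 was called, with a log2 difference of -1.10 ± 0.19 (SE, adjusted p = 0.00248). AT2G37190 of that family had signals of 5357, 7529, 8776 and 6833 at 22°C and of 6997, 6157, 5449.7 and 6062 at 26°C. It was higher at 26°C in Col-0 and lower in the 3 mutants, with a log2 difference of -0.19 ± 0.19 (SE, adjusted p = 0.46).

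The RPL7 family was the one family with a gene that rose. AT3G13580 had signals of 1524 (Col-0), 1372 (as2-1), 1836 (rh10-1) and 2205 (double mutant) at 22°C. At 26°C it had 3444 (Col-0), 3721 (as2-1), 3643 (rh10-1) and 3516 (double mutant), and every array at 26°C lay above every array at 22°C. The log2 difference was 1.07 ± 0.17 (SE, adjusted p = 0.0015). The other 3 RPL7 genes fell. AT2G01250 had 6426, 8049.7, 9995 and 8394 at 22°C and 4576, 3908, 4499 and 3856 at 26°C, with a log2 difference of -0.95 ± 0.17 (SE, adjusted p = 0.00277). The log2 ratio of AT3G13580 to AT2G01250 within an array lay between -2.55 and -1.93 at 22°C and between -0.41 and -0.07 at 26°C. AT1G80750 had 789, 1115, 1467 and 1253 at 22°C and 664, 477, 854 and 607 at 26°C. Its log2 difference of -0.82 ± 0.18 (SE, adjusted p = 0.00757) was not called without either as2-1 array (adjusted p = 0.0538 and 0.0544). The fourth gene, AT2G44120, differed by -0.66 ± 0.17 (SE, adjusted p = 0.0165), a call lost without either as2-1 array, either rh10-1 array or the filter (adjusted p = 0.0714 to 0.094).

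In the RPL14 family, AT2G20450 had signals of 1399, 2196, 3103 and 2741 at 22°C and of 736, 633, 1028 and 643 at 26°C. The 2 sets did not overlap, and the log2 difference was -1.60 ± 0.20 (SE, adjusted p = 0.00052). Its paralog AT4G27090 had 6644, 7565, 6414 and 7507 at 22°C and 5262, 6183, 5736 and 6321 at 26°C, a log2 difference of -0.26 ± 0.15 that was not called (adjusted p = 0.187). Of the 4 genes of RPL13a, a family whose human member also silences certain inflammatory mRNAs, 3 fell. AT3G07110 had 5125, 6671, 10030.3 and 8447 at 22°C and 4364, 3044, 4639.5 and 3311 at 26°C, with a log2 difference of -0.96 ± 0.20 (SE, adjusted p = 0.00618). AT4G13170 had 1698, 2494, 3149.5 and 2649 at 22°C and 1406, 1022, 1411 and 840.0 at 26°C, with a log2 difference of -1.09 ± 0.22 (SE, adjusted p = 0.00458). Neither gene had an array at 26°C that reached the lowest array at 22°C. The fourth, AT3G24830, differed by -0.32 ± 0.17 and was not called (adjusted p = 0.159).

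Both genes of RPL22, an RNA-binding protein on the surface of the subunit, fell. AT5G27770 had 3465, 3931, 4894 and 4559.8 at 22°C and 2389.8, 2493, 2144 and 2076 at 26°C, with a log2 difference of -0.88 ± 0.17 (SE, adjusted p = 0.00383), and AT3G05560 differed by -1.18 ± 0.18 (SE, adjusted p = 0.00147). In the RPL18 family, AT5G27850 had 5398, 6564, 8612 and 8789.8 at 22°C and 4752, 3499, 5696 and 4073 at 26°C. Its sets of arrays overlapped by the 26°C array of rh10-1. The log2 difference of -0.70 ± 0.18 (SE, adjusted p = 0.0164) was no longer called without any 1 of the arrays of as2-1, rh10-1 or the double mutant (adjusted p = 0.0502 to 0.096) or without the filter (adjusted p = 0.073). The measured genes of RPL6, RPL9, RPL7a and RPL15 (6 in all) were each called lower, with log2 differences from -1.28 (AT4G10450, of the RPL9 family) to -0.60 (AT3G62870, of the RPL7a family). AT3G62870 was no longer called without the filter or without any 1 of the arrays of as2-1, rh10-1 or the double mutant (adjusted p = 0.0547 to 0.14). AT4G16720, of the RPL15 family, was no longer called after quantile normalization, without the filter or without either as2-1 or either rh10-1 array (adjusted p = 0.0535 to 0.0844). AT5G23900, the 1 measured gene of RPL13, had 2563, 2667, 4198 and 3439.6 at 22°C and 4497, 4059.9, 3905 and 4527 at 26°C. It was higher at 26°C in all genotypes but rh10-1, and the log2 difference of 0.43 ± 0.18 was not called (adjusted p = 0.0908), except after quantile normalization (0.71, adjusted p = 0.00735).

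**Figure D2:**
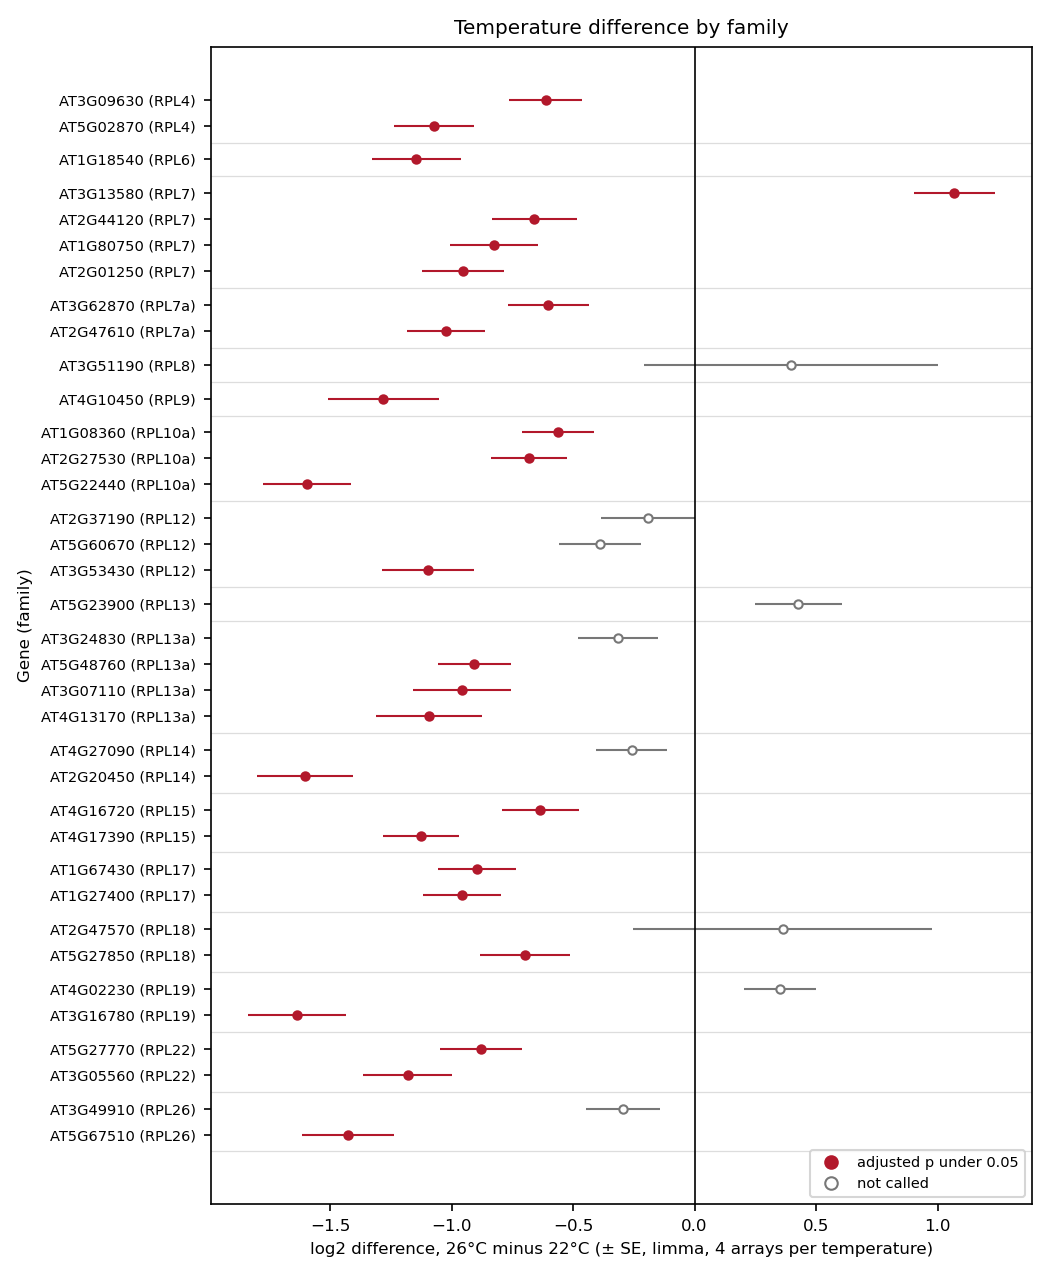
Log2 difference in signal between 26°C and 22°C for 36 of the 38 genes, grouped by family, as the limma estimate with its SE over 4 arrays per temperature; filled points have an adjusted p under 0.05. The 26 filled points left of 0 stand in all families shown but RPL8 and RPL13, and AT3G13580 of RPL7 is the one filled point right of 0.

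The 14 families with at least 2 measured genes thus spread unequally. The highest and the lowest estimate differed by 2.02 in RPL7 and 1.99 in RPL19, by 1.34 in RPL14, 1.13 in RPL26 and 1.03 in RPL10a, and by 0.06 in RPL17. RPL18 spread by 1.06, which rests on the low signal of AT2G47570. These pairs were chosen as the extremes of each family and are given without a test. Paralogs share much of their coding sequence, and how far a probe set also takes up the transcript of a paralog was not tested.

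At 22°C the genes were higher in the mutants than in Col-0, most of all in rh10-1. The log2 ratio of rh10-1 to Col-0 was above 0 for 36 of the 38, against 3591 of the 7943 genes kept at 22°C. Its median was 0.63 against -0.06 for all genes. Of the 38, 21 were higher by 1.5-fold or more, against 13.2% of the 7943 genes kept at 22°C, and 0 were lower, against 15.7%. In as2-1 rh10-1 the ratio was above 0 for 37 (3724 of the 7943), with a median of 0.47. Here 10 were higher by 1.5-fold or more (11.8% of all genes) and 1 was lower (11.9%), the low-signal AT3G51190. In as2-1 the ratio was above 0 for 35 (3598 of the 7943), with a median of 0.23. By 1.5-fold, 2 were higher (6.29%) and 0 lower (7.67%). The 3 ratios share the Col-0 array. After quantile normalization the medians were 0.40, 0.27 and 0.14, and the numbers higher by 1.5-fold were 10, 5 and 0.

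The order of the 4 arrays at 22°C was much the same from gene to gene. Genes that share these single arrays are not independent replicates of a genotype. Col-0 was the lowest of the 4 for 34 of the 38, against 27.1% of all genes, and rh10-1 was the highest for 29, against 26.5%. Both arrays with rh10-1 lay above both arrays without it for 34, against 22.6%. The exceptions were AT3G51190, AT2G37190, AT4G27090 and AT3G49910, which were named after their values were seen. In the comparison that leaves out Col-0, as2-1 rh10-1 against as2-1, the log2 ratio was above 0 for 34 (4109 of the 7943 genes). Its median was 0.24 (0.15 after quantile normalization), and 2 were higher by 1.5-fold or more (7.65% of all genes), AT3G13580 and AT5G60670. The double mutant was lower than rh10-1 for 31 of the 38 (3929 of the 7943), with a median log2 ratio of -0.15 against 0.0 for all genes. Its log2 ratio to Col-0 less those of both single mutants was under 0 for 35 (3647 of the 7943). The median was -0.37 for the 38 and 0.05 for all genes.

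The 4 genes with the highest effect of rh10-1 at 22°C were AT3G16780, AT5G67510, AT2G20450 and AT3G07110, of which the first 3 were also among the 4 largest decreases at 26°C, a comparison that shares the arrays at 22°C. The log2 ratio of AT3G16780 was 1.25 for rh10-1 against Col-0 and 0.53 for as2-1 rh10-1 against as2-1, and that of AT5G67510 was 1.15 and 0.33. AT2G20450 had ratios of 1.15 and 0.32 and AT3G07110 of 0.97 and 0.34. The lower end held AT4G27090, with ratios of -0.05 and -0.01, AT3G49910, with 0.32 and -0.26, and AT2G37190, with 0.71 and -0.14. Thus in RPL14 and in RPL26 a gene at the upper end and a gene at the lower end stood within 1 family. PGY1 had ratios of 0.52 and 0.29, and AT5G02870 of the RPL4 family had 0.63 and 0.35.

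In the limma fit of both mutations at each temperature, which takes both pairs together, the effect of rh10-1 at 22°C passed an adjusted p of 0.05 for 0 of the 38 genes, against 0.298% of the 8399 genes tested. At an unadjusted p under 0.05, 17 were higher, against 6.72% of all genes, and 0 lower. This fit takes the effects of the 2 mutations to add up on the log2 scale. Its error therefore holds the departure of the double mutant from that sum, which at 22°C had a median of -0.37 for the 38. The median effect of rh10-1 was 0.47, and it was 0.26 after quantile normalization. Without 1 of the arrays at 22°C, the fit only returns the 1 pair that is left. The median is then that of the ratio already given. It was 0.24 without Col-0 or rh10-1 at 22°C and 0.63 without either of the other two arrays. The smallest adjusted p was 0.181, for AT3G16780, with an effect of 0.89 ± 0.22 (SE). In fits without any 1 of the arrays at 26°C, the effects at 22°C were unchanged. They stayed at 0.89 for AT3G16780 and 0.735 for AT2G20450, both named after their values were seen. Those fits had 1 residual degree of freedom and took the error of every gene from the intensity trend alone. Their calls are therefore not used.

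**Figure D3:**
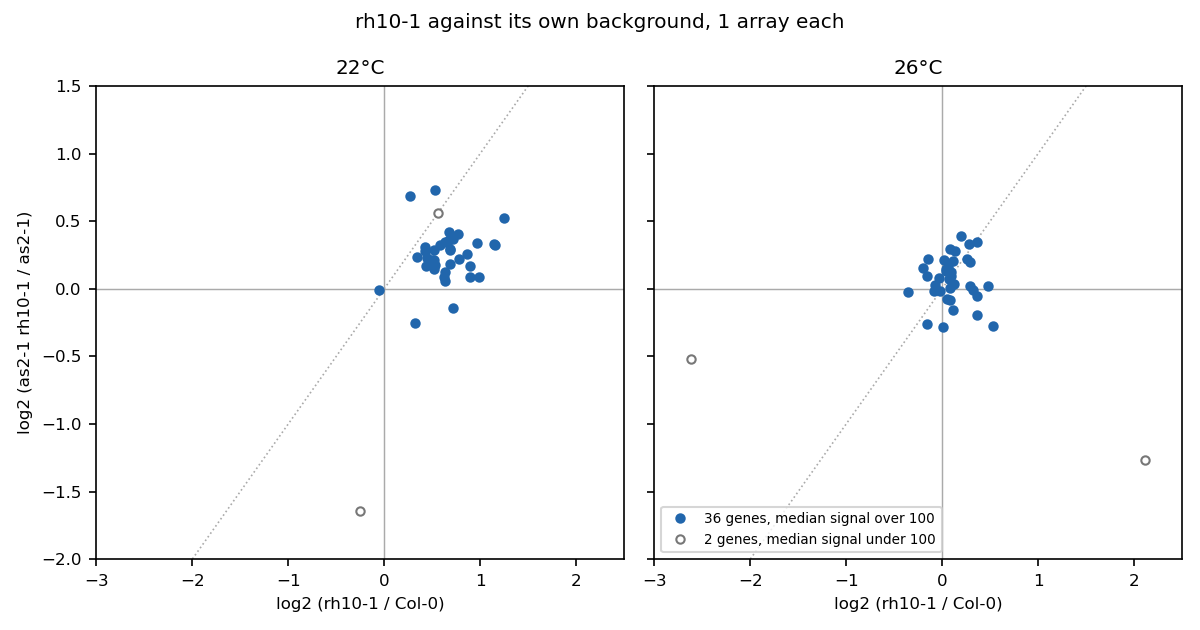
Log2 ratio of rh10-1 to Col-0 (horizontal) and of as2-1 rh10-1 to as2-1 (vertical) for each of the 38 genes at 22°C (left) and 26°C (right), each from 2 single arrays; the dotted line marks equal ratios and open points are the 2 genes of low signal. At 22°C most points lie right of and above 0 (medians 0.63 and 0.24), and at 26°C they gather around 0 (medians 0.08 and 0.05).

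At 26°C the genes stood close to Col-0 in rh10-1. The log2 ratio of rh10-1 to Col-0 had a median of 0.08. It was above 0 for 28 of the 38, against 4121 of the 8041 genes kept at 26°C. By 1.5-fold, 1 gene was higher (10.6% of the 8041) and 1 lower (11.3%), which were the low-signal AT3G51190 and AT2G47570. In as2-1 the median was -0.22 with 26 under 0 (4097 of the 8041), 1 higher (8.11%) and 2 lower (8.92%). In as2-1 rh10-1 it was -0.13 with 26 under 0 (4134 of the 8041), 0 higher (16.1%) and 2 lower (17.7%). Both arrays with as2-1 lay under both arrays without it for 21 of the 38, against 18.9% of all genes. The 4 highest effects of rh10-1 at 26°C were those of AT3G51190, AT1G80750, AT3G09630 and AT4G02230, and the 4 lowest those of AT2G47570, AT5G27770, AT2G37190 and AT4G13170. For the genes with signals over 100 the effects lay between -0.21 and 0.35.

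No gene of the 38 was called for an effect of rh10-1 at 26°C (2.38% of all genes), of as2-1 at 22°C (0.0952%) or of as2-1 at 26°C (0.0357%). At an unadjusted p under 0.05 the first 2 held 0 genes and the last 6, all lower, against 6.51% of all genes, and the median effects were 0.09, 0.05 and -0.18. Without 1 array at 22°C the fit again returns 1 pair. The median of as2-1 at 22°C was then -0.15 (without Col-0 or as2-1, as2-1 rh10-1 over rh10-1) or 0.23 (without either array with rh10-1, as2-1 over Col-0). The change of the rh10-1 effect from 22°C to 26°C was under 0 for 36 of the 38 (4269 of the 8399 tested). Its median was -0.35, and 0 were called (0.56% of all genes). This median was -0.12 after quantile normalization. With only 1 pair left at 22°C, it was -0.13 without Col-0 or rh10-1 at 22°C and -0.51 without either of the other two arrays. The 2 with an unadjusted p under 0.05 were AT3G16780 and AT4G10450, both lower, against 6.81% of all genes. The same change for as2-1 had a median of -0.19, with 0 called (0.0119%) and 3 at an unadjusted p under 0.05, all lower (3.8%), and the median lay between -0.45 and -0.004 over fits that left out 1 array. Over both temperatures, 0 of the 38 were called in either single mutant or in the double mutant against Col-0, as were 0% of all genes. At an unadjusted p under 0.05 there were 6 in rh10-1, all higher (3.25% of all genes), and 0 in the other two. In rh10-1, 37 of the 38 were above 0 (3942 of the 8399 tested), with a median of 0.35.

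Other ribosomal protein genes moved in the same directions as groups with temperature and in rh10-1 at 22°C. Of 41 other large-subunit and P-stalk genes tested, 30 fell at 26°C and 0 rose, with a median log2 difference of -0.92. Of 42 genes of the small subunit, 27 fell and 1 rose, with a median of -0.71. Of 6 genes of the plastid large subunit 5 fell, and of 14 ribosome biogenesis genes 7 fell and 1 rose, with medians of -0.64 and -0.73. Of all genes tested, 17.1% fell and 21.4% rose. In Col-0 alone the biogenesis genes did not fall as a group. Their median log2 ratio of 26°C to 22°C was 0.05, with 7 above and 7 under 0. It was -0.68 in as2-1, -0.74 in rh10-1 and -1.17 in the double mutant. At 22°C the median log2 ratio of rh10-1 to Col-0 was 0.66 for the other large-subunit genes and 0.72 for the small-subunit genes, over 45 measured genes each, next to 0.63 for the 38 genes described here. It was 0.18 for the plastid genes and 0.94 for the ribosome biogenesis genes. The plastid genes went the other way in the fitted rh10-1 effect at 26°C, with a median of -0.26 against 0.09 for the 38. So they did in the double mutant against Col-0 over both temperatures, with -0.23 against 0.18. Whether any of these lists differed from the 38 genes was not tested.

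**Figure D4:**
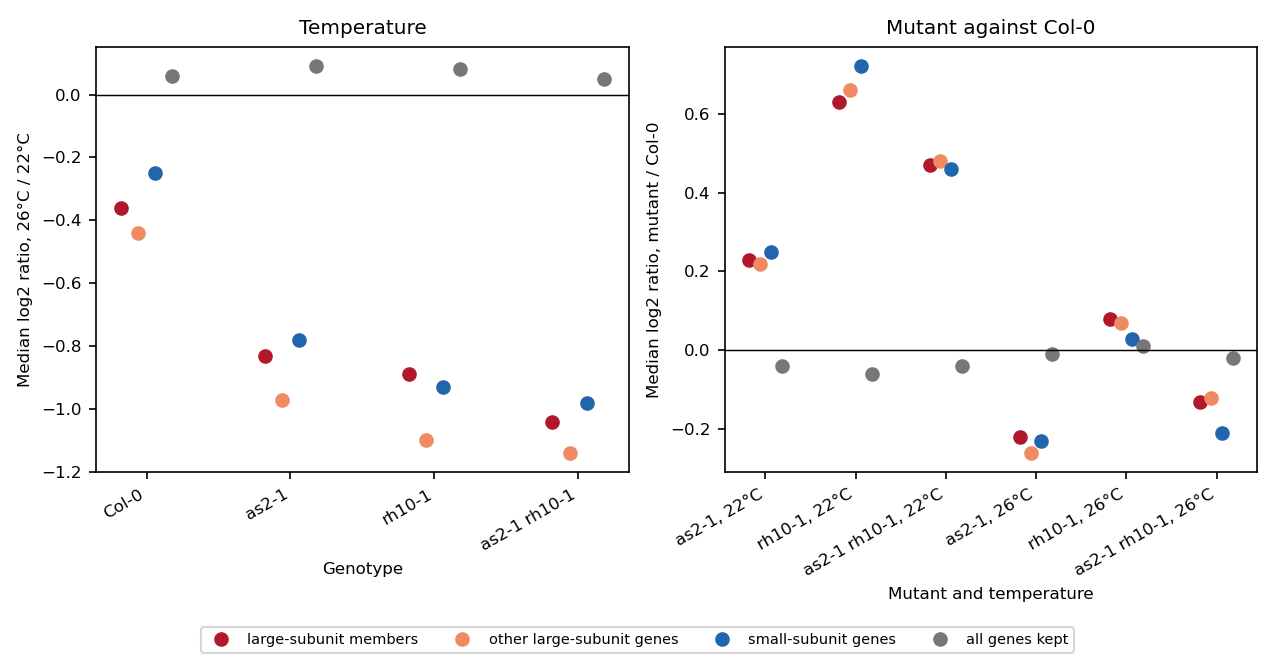
Median log2 ratio of 26°C to 22°C in each genotype (left) and of each mutant to Col-0 at each temperature (right) for the 38 large-subunit genes, the other large-subunit genes, the small-subunit genes and all genes kept; each point is the median over genes of a ratio of 2 single arrays. The 3 ribosomal lists lie close together, from -0.25 to -0.44 in Col-0 and from -0.78 to -1.14 in the mutants on the left, while the medians of all genes stay within 0.09 of 0.

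Signals of other kinds moved with temperature too. Of 16 cell division genes 2 were measured, AUR1, a mitotic kinase, and PRL, a replication factor, and both fell at 26°C (log2 differences of -1.81 and -1.59, adjusted p = 0.00187 and 0.000305). AUR1 ranged from 59.7 to 182 at 26°C and from 360.1 to 431 at 22°C, and PRL from 140.4 to 292 and from 513 to 714. The effect of rh10-1 on AUR1 was -0.19 ± 0.22 at 22°C (SE, adjusted p = 0.777) and 1.3 ± 0.22 at 26°C (SE, adjusted p = 0.0169), and that on PRL was -0.26 ± 0.20 and -0.31 ± 0.20 (SE, adjusted p = 0.631 and 0.522). Of 3 photosynthesis genes measured, out of 9 listed, 1 rose and 1 fell. In these bulk samples fewer dividing cells and less RNA per cell cannot be told apart, and the part of either in the ribosomal protein signals was not tested.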

How the data were processed

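Total RNA of shoot apices was labelled with biotin and hybridised to ATH1 arrays, and the authors derived the deposited signals, linear intensity values of 22746 probe sets, with the Affymetrix GeneChip Operating Software, which scales each array. Raw probe data were not used here. Of 14016 probe sets with a named gene, 13230 had 1 gene and no mark of sharing, and the probe set with the highest mean log2 signal stood for a gene. Signals of 0 (9 values) were set to 0.1 before log2.

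Differences were tested with limma 3.58.1 in R 4.3.3 with an intensity trend, first with genotype and temperature. The second fit held as2, rh10, temperature and both interactions with temperature, without an interaction of as2 with rh10. p-values were adjusted over all 8399 genes kept by the method of Benjamini and Hochberg. The limma script was tested on simulated data. Ratios of single arrays were counted at 1.5-fold without a test. Precision is limited by how many arrays there were. The methods' clustering of ratios was not repeated.

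The genes given with values in every array were the 4 with the largest temperature difference in each direction, the 4 highest and 4 lowest in the effect of rh10-1 at each temperature, the highest and lowest paralogs of the 3 families with the widest spread in any of these effects, and genes known from leaf mutants (PGY1 and AT5G02870 were measured). Other genes were named after their values were seen. The members and lists were chosen with earlier results of these data known. Promoter and protein sequences were not analysed here. Values of 2 of the 38 genes are not reported here singly, and both are in the counts and medians.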

Additional observations from a re-analysis of the deposited data

How the results depend on the processing

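Quantile normalization, centring on the array median or on that of the genes with the highest signals (the last chosen after seeing the data), floors, filters, other choices of probe set and leaving out each array kept the median temperature difference of the 38 genes below 0, with 19 of the 27 decreases called in all 17 settings and 20 in those that kept every array. The count of decreases was 25 after quantile normalization. After quantile normalization 3 genes were called higher at 26°C in place of 1, and 10 genes in rh10-1 and 5 in as2-1 rh10-1 were higher than Col-0 by 1.5-fold at 22°C, in place of 21 and 10. Without quantile normalization but with a fold of 2, the numbers higher than Col-0 at 22°C were 3 in rh10-1 and 0 in as2-1 rh10-1. Leaving out an array at 26°C did not change the estimated effects of rh10-1 at 22°C, and the calls of those fits are not used. Fits that leave out 1 array have 1 residual degree of freedom fewer. In the fit of genotype and temperature, a genotype left with a single array adds nothing to the temperature difference. Leaving out either array of a genotype thus gives the same estimate, and the 17 settings hold fewer distinct estimates than that. Centring on the array median moved the median of all genes for rh10-1 against Col-0 at 22°C from -0.06 to 0.07 and that of the 38 genes from 0.63 to 0.77. Among the genes given with values in every array, 2 temperature calls were gained, both after quantile normalization. AT1G80750, AT3G09630 and AT5G27850 lost theirs in some settings. Other genes of the 38 lost calls as well, as stated above for those named. The cause was not tested. No paired analysis was possible because each group had 1 array, beyond the fit of genotype and temperature itself, which compares the temperatures within each genotype.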
